A study of Oryza sativa with 4 samples.

Results

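Fermentation and low-oxygen response genes were followed here in leaves of rice seedlings (Oryza sativa, genotype Dongjin) irrigated with 5 mM S-nitrosocysteine (CysNO), against seedlings irrigated with buffer alone (1 mM HCl). The set holds 10 of the 57995 loci in the deposited tables, taken by locus name: the pyruvate decarboxylase genes PDC1 and PDC2, the alcohol dehydrogenase genes ADH1 and ADH2, the lactate dehydrogenase gene LDH, the sucrose synthase gene SUS1, the α-amylase gene Amy3D, and the group VII ERF loci LOC_Os02g54160, LOC_Os09g11460 and LOC_Os09g11480. CysNO is a small thiol whose sulfur carries nitric oxide, which it releases or passes to protein cysteines. Seedlings of both groups were 7 days old, raised under 16 h of light and 8 h of dark at 23 °C. Each group has 2 leaf libraries, numbered 1 and 2. The labels name no low-oxygen treatment and no group given cysteine alone, and they give the HCl buffer for control plants only, so effects of nitric oxide, of the rest of the molecule and of the buffer cannot be told apart. No source used here gives the time between irrigation and harvest. The labels do not say whether the 2 libraries of a group are separate plants, so the p-values reflect spread among these samples only, and that spread may be technical.

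When oxygen is short, plant cells make ATP by glycolysis and regenerate NAD+ by fermentation. Pyruvate decarboxylase turns pyruvate into acetaldehyde, alcohol dehydrogenase reduces that to ethanol, and lactate dehydrogenase takes pyruvate to lactate instead. Sucrose synthase and α-amylase feed the pathway from sucrose and starch. Group VII ERF proteins are transcription factors of the low-oxygen response. In Arabidopsis they carry an N-terminal cysteine through which oxygen and nitric oxide together mark them for breakdown. In rice, the submergence tolerance locus SUB1 on chromosome 9 consists of group VII ERF genes.

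Values are FPKM, in which the fragments of a locus are divided by transcript length and by the library's mapped fragments. Libraries summed to between 687469 and 732401 FPKM, and the read depth behind them is unknown. In bulk leaf RNA, fewer cells of a type and less RNA per cell cannot be told apart. Of 5 leaf markers (3 rbcS loci and 2 chlorophyll a/b binding protein loci) all were present in every library, and they summed to 2368 and 3459 FPKM in CysNO libraries 1 and 2, against 4940 and 3736 FPKM in control libraries 1 and 2. The 3 root markers summed to 6.08 and 27.3 FPKM in CysNO, against 10.2 and 7.39 FPKM in control, so CysNO 2 stood above the other libraries there, mostly through the silicon transporter gene Lsi1. Among 3 endosperm markers the sum stayed between 0.161 and 0.504 FPKM, with the glutelin locus GluB1 listed at 0 in all 4 libraries. The meristem marker OSH1 read 2.59 and 1.17 FPKM in CysNO, against 3.48 and 6.68 FPKM in control.

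PDC1 rose 24.0-fold in mean FPKM after CysNO, and it was the 1 gene of the 10 to pass the test. The other 9, among them both alcohol dehydrogenase genes, LDH and SUS1, did not. Differences were tested with limma on log2(FPKM + 1) over the 21123 loci that reached 1 FPKM in 2 or more libraries, and a gene was called at a Benjamini-Hochberg adjusted p under 0.05. All 10 genes passed that filter, Amy3D through its CysNO libraries alone. Across all tested loci 4.23% were called, 3.27% higher and 0.956% lower in CysNO, and a count of 1 in 10 is too small to read against such shares. In limma 0 of the 10 were called lower. At an unadjusted p under 0.05, 2 were higher (PDC1 and Amy3D) and 2 lower (LOC_Os09g11460 and LOC_Os09g11480), where 9.66% of all tested loci were higher and 8.39% lower, and these counts too are small. CysNO and control values stood apart at 6 of the 10 genes, 4 of them higher and 2 lower in CysNO, while groups that do not overlap were seen at 46.4% of all tested loci, 21.5% higher and 24.9% lower. The median log2 fold change was 0.27 over the 10 genes and -0.01 over all tested loci.

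**Figure D1:**
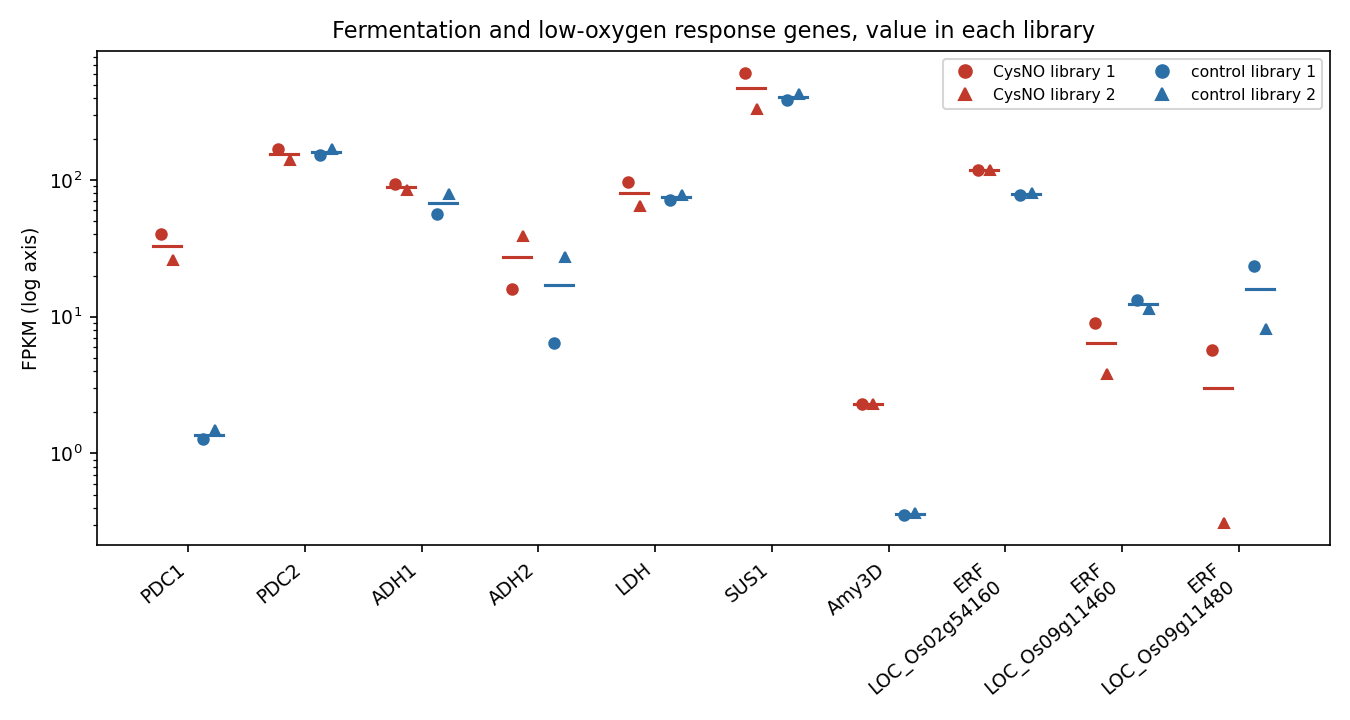
FPKM (log axis) of each of the 10 genes in CysNO libraries (red, left of each pair) and control libraries (blue), with a circle for library 1, a triangle for library 2 and a bar for the group mean. PDC1 stands at 40.1 and 25.9 FPKM in CysNO, against 1.27 and 1.47 FPKM in control, while PDC2, LDH and SUS1 overlap between the groups.

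By level, SUS1 came first, then PDC2 and then LOC_Os02g54160 in the group means of both CysNO and control, and Amy3D came last. PDC1 held rank 6 in CysNO and rank 9 in control. SUS1 and PDC2 did not overlap each other in either group, while ADH1 and LDH overlapped in both.

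PDC1 (LOC_Os05g39310, chromosome 5, bases 22996378 to 22998705, plus strand, in the coordinates of the files, for which no source used here names a build) had 40.1 and 25.9 FPKM in CysNO, against 1.27 and 1.47 FPKM in control. Both CysNO libraries were thus far above both control libraries, and the CysNO libraries also lay further apart. Its mean was 33.0 ± 10.1 FPKM in CysNO and 1.37 ± 0.141 FPKM in control (SD, n = 2 each), a log2 fold change of 3.81 (SE 0.31; adjusted p from limma = 0.00211). The log2(FPKM + 1) scale understates the change of genes with low values, and with a pseudocount of 0.1 FPKM in place of 1 the value was 4.46. With the pseudocount of 1, PDC1 ranked 42 among the 21123 tested loci by log2 fold change. Without CysNO 1 the log2 fold change was 3.50 and without CysNO 2 it was 4.12. PDC1 was not called in either fit, as held for nearly all tested loci. In these fits the spread is taken from the controls alone, and the cause of the lost calls was not tested. The call was also lost with no filter on low values (limma, adjusted p = 0.0845), a setting that called 2 loci higher and 0 lower in all.

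PDC2 (LOC_Os03g18220, chromosome 3, bases 10216712 to 10219664, minus strand) encodes the same enzyme and was the main pyruvate decarboxylase transcript in every library. It had 170 and 141 FPKM in CysNO, against 152 and 168 FPKM in control. The groups overlapped, with a log2 fold change of -0.05 and a 95% interval of -0.70 to 0.61 (limma, adjusted p = 0.964). The interval leaves out a change of the size seen for PDC1. The ratio of PDC1 to PDC2, which does not depend on how a library is scaled, was 0.236 and 0.184 in CysNO, against 0.00838 and 0.00879 in control.

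Of 3 further loci listed as pyruvate decarboxylases from general knowledge of rice locus names, 1 rose and 0 fell. Among all tested loci 3.27% were called higher and 0.956% lower, so nothing is read about the family from this count. The locus that rose, LOC_Os05g39320, is the next one downstream of PDC1 on the same strand, with 4342 bp between them. It had 19.7 and 19.6 FPKM in CysNO, against 0.126 and 0.235 FPKM in control, a log2 fold change of 4.13 (SE 0.29, adjusted p from limma = 0.00181). Like PDC1, the locus was not called with either CysNO library left out (log2 fold change 4.13 each). With a pseudocount of 0.1 FPKM in place of 1 the log2 fold change was 6.17, and with no filter the locus was not called either (limma, adjusted p = 0.0786). It passed the filter through its CysNO libraries alone, and the read depth behind its low control values is unknown. No source used here says how reads shared by similar neighbours were counted, so the split between PDC1 and LOC_Os05g39320 is uncertain. The ratio of PDC1 to LOC_Os05g39320 was 2.04 and 1.32 in CysNO, against 10.1 and 6.27 in control. PDC3 (LOC_Os07g49250) had 1.20 and 0.305 FPKM in CysNO, against 1.61 and 1.98 FPKM in control, and did not pass (limma, adjusted p = 0.372). LOC_Os01g06660 overlapped between the groups, at 12.7 and 8.34 FPKM in CysNO, against 6.03 and 17.2 FPKM in control.

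Summed over the 5 loci, pyruvate decarboxylase transcripts came to 243.5 and 195 FPKM in CysNO, against 161 and 188.5 FPKM in control. PDC1 made up 16.5% and 13.3% of that sum in CysNO, against 0.791% and 0.781% in control. LOC_Os05g39320 made up 8.09% and 10.1% in CysNO, against 0.0782% and 0.125% in control. PDC2 still supplied 69.7% and 72.2% in CysNO, against 94.4% and 88.9% in control. Both CysNO sums thus lay above both control sums. The shares of PDC1 and LOC_Os05g39320 were higher, and that of PDC2 lower, in both CysNO libraries than in both controls. No test was made of the sum or of the shares.

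**Figure D2:**
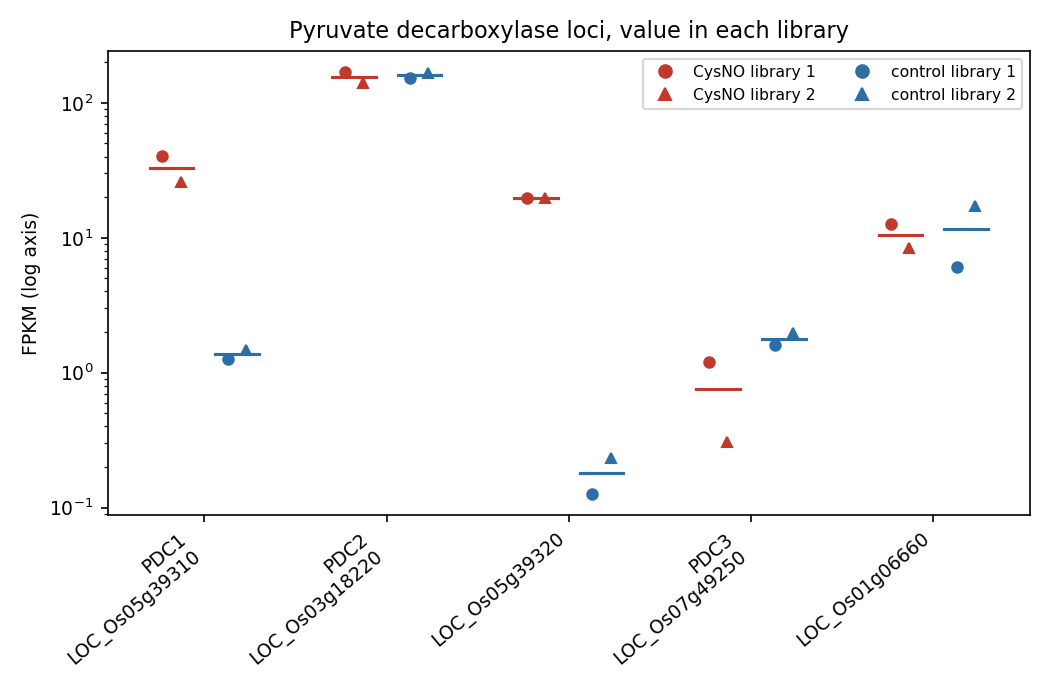
FPKM (log axis) of the 5 pyruvate decarboxylase loci in CysNO (red, left) and control (blue) libraries, with group means as bars. PDC1 and its neighbour LOC_Os05g39320 are at 19.6 to 40.1 FPKM in CysNO and at 0.126 to 1.47 FPKM in control, and PDC2 lies between 141 and 170 FPKM in all 4 libraries.

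ADH1 (LOC_Os11g10480, chromosome 11, bases 5708393 to 5712040, minus strand) was the more abundant of the 2 alcohol dehydrogenase genes of the set in every library. It had 93.5 and 85.0 FPKM in CysNO, against 56.9 and 78.7 FPKM in control. The CysNO libraries lay above both controls, by a margin smaller than the gap between the controls. The log2 fold change was 0.41 with a 95% interval of -0.25 to 1.07 (limma, adjusted p = 0.539). ADH2 (LOC_Os11g10510, bases 5740713 to 5743904, minus strand), 28672 bp away, had 16.1 and 39.0 FPKM in CysNO, against 6.46 and 27.6 FPKM in control. Library 2 was high and library 1 low within each group, and the groups overlapped. Its log2 fold change of 0.84 had a 95% interval of -0.68 to 2.36 (limma, adjusted p = 0.598). Without control 1 that value was -0.13, and without control 2 it was 1.81, so its direction rested on control 1. CysNO 2, where ADH2 was highest, was also the library with the highest root marker sum (27.3 FPKM, against 6.08 FPKM in CysNO 1). Between the controls the order was the other way, with the higher ADH2 value and the lower root marker sum (7.39 FPKM, against 10.2 FPKM) in control 2. The part of root transcripts in these values was not tested. The sum of ADH1 and ADH2 was 110 and 124 FPKM in CysNO, against 63.4 and 106 FPKM in control. ADH2 gave 14.6% and 31.4% of it in CysNO and 10.2% and 25.9% in control. No further alcohol dehydrogenase loci were listed here, so the sum may leave out transcripts of the enzyme, and nothing is read about the enzyme as a whole from it.

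Loci next to ADH1 and ADH2 were read as well, because similar neighbours may share reads. LOC_Os11g10470, 1391 bp from ADH1, had 61.0 and 83.6 FPKM in CysNO, against 29.4 and 36.1 FPKM in control, and did not pass, its log2 fold change being 1.11 (adjusted p from limma = 0.0809). LOC_Os11g10520, 7491 bp from ADH2, had 15.7 and 21.9 FPKM in CysNO, against 53.7 and 19.2 FPKM in control (limma, adjusted p = 0.467). The loci between ADH1 and ADH2 that adjoin them, LOC_Os11g10490 and LOC_Os11g10500, were at most 0.0152 FPKM in any library.

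LDH (LOC_Os02g01510, chromosome 2, bases 295302 to 299174, plus strand), the gene of the branch to lactate, had 96.7 and 64.5 FPKM in CysNO, against 71.7 and 78.1 FPKM in control. The controls lay between the 2 CysNO libraries, and the log2 fold change was 0.08 with a 95% interval of -0.61 to 0.77 (limma, adjusted p = 0.942). With quantile normalization its sign turned (-0.08). Of 2 loci listed as mitochondrial aldehyde dehydrogenases, enzymes that oxidise the acetaldehyde made in fermentation, 0 were called by limma, and at an unadjusted p under 0.05 there was 1 in each direction, against 9.66% of all tested loci higher and 8.39% lower. LOC_Os02g49720 had 94.0 and 82.1 FPKM in CysNO, against 54.8 and 35.9 FPKM in control (log2 fold change 0.97; limma, adjusted p = 0.136). LOC_Os06g15990 had 60.5 and 54.3 FPKM in CysNO, against 111 and 78.9 FPKM in control (log2 fold change -0.70; limma, adjusted p = 0.251). The groups did not overlap at either locus, as at 46.4% of all tested loci, with LOC_Os02g49720 higher and LOC_Os06g15990 lower in CysNO.

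SUS1 (LOC_Os03g28330, chromosome 3, bases 16299924 to 16306279, minus strand), whose enzyme splits sucrose with UDP, was the most abundant of the 10 genes. It had 605 and 331 FPKM in CysNO, against 387 and 427 FPKM in control. Both controls lay between the CysNO libraries, and the log2 fold change of 0.14 had a 95% interval of -0.78 to 1.05 (limma, adjusted p = 0.918). It was -0.04 with quantile normalization. SUS1 gave 83.2% to 87.6% of the summed FPKM of the 7 sucrose synthase loci in every library. Of the other 6 loci 4 were tested and 0 were called by limma, where 4.23% of all tested loci were called. At an unadjusted p under 0.05 the count was also 0, where 9.66% of all tested loci were higher and 8.39% lower. These counts are too small to read. The 4 tested loci had log2 fold changes from -0.72 to 0.28. SUS2, the most abundant of them, had 76.0 and 52.5 FPKM in CysNO, against 48.9 and 55.2 FPKM in control.

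Amy3D (LOC_Os08g36910, chromosome 8, bases 23337963 to 23340820, plus strand), an α-amylase gene known in rice for its induction by sugar starvation, was low in every leaf library. It had 2.30 and 2.29 FPKM in CysNO, against 0.356 and 0.365 FPKM in control. The CysNO libraries were nearly equal, as were the controls, and the groups stood 6.37-fold apart in their means. The log2 fold change of 1.28 ± 0.31 (SE), on a scale that understates the change of low genes, did not pass (limma, adjusted p = 0.0685). Without a mean-variance trend it passed at 0.049, and over the other alternatives run its adjusted p lay between 0.0914 and 0.35. With a pseudocount of 0.1 FPKM in place of 1 the log2 fold change was 2.38 (limma, adjusted p = 0.0978).

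The other 7 loci listed as α-amylases, a list that may not be complete, were at most 3.68 FPKM in any library. Amy2A was the 1 of them abundant enough to test, with 1.03 and 1.62 FPKM in CysNO, against 2.95 and 3.68 FPKM in control (log2 fold change -0.90; limma, adjusted p = 0.192). Amy3E, which lies 3524 bp before Amy3D, had 0.657 and 0.131 FPKM in CysNO, against 1.83 FPKM in control 1, and was listed at 0 in control 2. Amy3D made up 46.3% and 46.2% of the FPKM summed over these 8 listed loci in CysNO, against 4.89% and 8.57% in control. That sum was 4.97 and 4.97 FPKM in CysNO, against 7.28 and 4.26 FPKM in control.

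**Figure D3:**
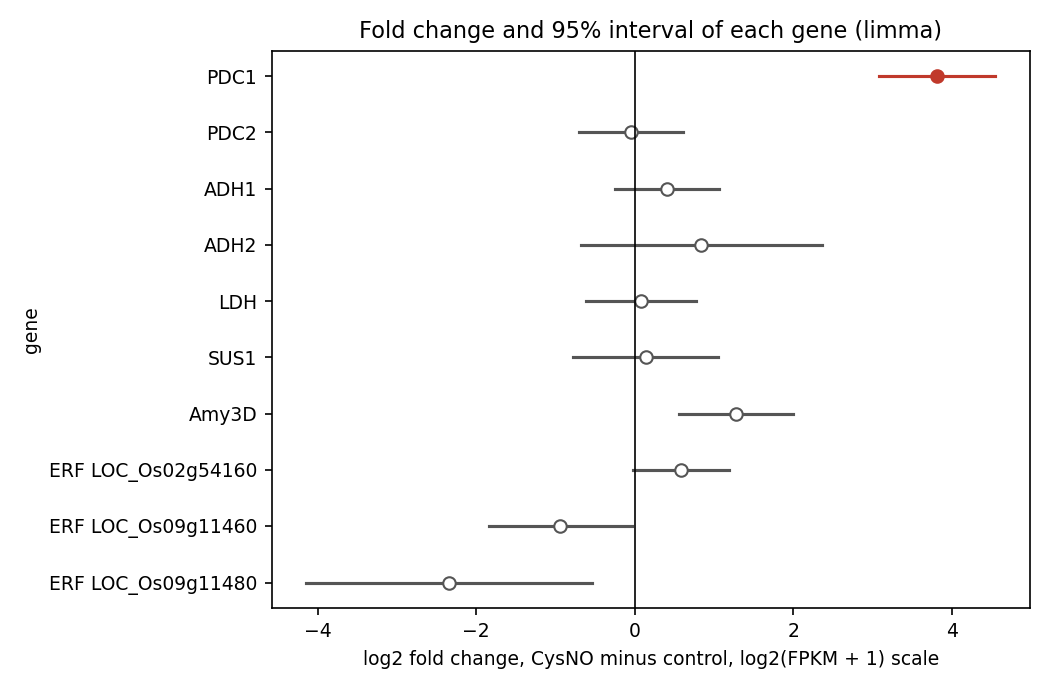
Log2 fold change (CysNO minus control, log2(FPKM + 1) scale) of each of the 10 genes with its 95% interval from limma; the filled point is the called gene. PDC1 lies at 3.81, its interval apart from those of the other 9, and the ERF locus LOC_Os09g11480 has the widest interval, from -4.14 to -0.54.

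None of the 3 group VII ERF loci of the set passed the test. LOC_Os02g54160 (chromosome 2, bases 33193935 to 33196815, minus strand) was taken to be EREBP1 from general knowledge. A RefSeq gene table holds that name on the same chromosome with a span within 10%. LOC_Os02g54160 had 118 and 119 FPKM in CysNO, against 77.8 and 80.1 FPKM in control. Replicates were close in both groups and the groups lay apart, with a log2 fold change of 0.58 and a 95% interval of -0.02 to 1.18 (limma, adjusted p = 0.293). LOC_Os09g11460 (chromosome 9, bases 6386891 to 6388789, minus strand) had 8.99 and 3.80 FPKM in CysNO, against 13.3 and 11.4 FPKM in control. Both CysNO libraries were below both controls, and the log2 fold change of -0.94 had a 95% interval of -1.84 to -0.03 (limma, adjusted p = 0.258). LOC_Os09g11480 (chromosome 9, bases 6403474 to 6405039, minus strand), 14684 bp further on, had 5.67 and 0.311 FPKM in CysNO, against 23.7 and 8.13 FPKM in control. It too was lower in both CysNO libraries, with a spread within each group larger than that of the other ERF loci of the 10. The log2 fold change was -2.34 ± 0.77 (SE; adjusted p from limma = 0.161). It ranged from -3.52 without CysNO 1 to -1.17 without CysNO 2, and without control 2 it passed (-3.06; limma, adjusted p = 0.039). CysNO 2, its lowest library, was also the one with the highest root marker sum, while control 2 was lower than control 1 in both. The part of root transcripts in these values was not tested.

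LOC_Os09g11470, between LOC_Os09g11460 and LOC_Os09g11480, and LOC_Os09g11490, beyond the second, were listed at 0 in all libraries. LOC_Os09g11450, 4246 bp from LOC_Os09g11460 on its other side, had 19.4 FPKM in both CysNO libraries, against 23.6 and 17.5 FPKM in control (limma, adjusted p = 0.948).

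Of 11 further loci listed in group VII, all tested, 1 rose and 0 fell, against 3.27% called higher and 0.956% called lower among all tested loci, so nothing is read about the family from this count. Their median log2 fold change was 0.23, and that of all tested loci was -0.01. The locus that rose was LOC_Os07g42510, with 96.3 and 103 FPKM in CysNO, against 37.2 and 19.7 FPKM in control, a log2 fold change of 1.84 (SE 0.34; adjusted p from limma = 0.0303). Its call was lost with median centring (0.0596), quantile normalization (0.0675) and no filter (0.163), the values in brackets being limma adjusted p. The call was also lost without CysNO 1, CysNO 2 or control 2, where the log2 fold change was 1.89, 1.79 and 1.40. The most abundant of the list, LOC_Os03g08500 (bierf4 in the files), had 470.3 and 442 FPKM in CysNO, against 492 and 469.9 FPKM in control (log2 fold change -0.08; limma, adjusted p = 0.947). Over all 14 loci the summed FPKM was 1314 and 1384 in CysNO, against 1509 and 1270.0 in control, and the groups overlapped. LOC_Os09g11460 and LOC_Os09g11480 each gave at most 1.57% of it in any library.

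**Figure D4:**
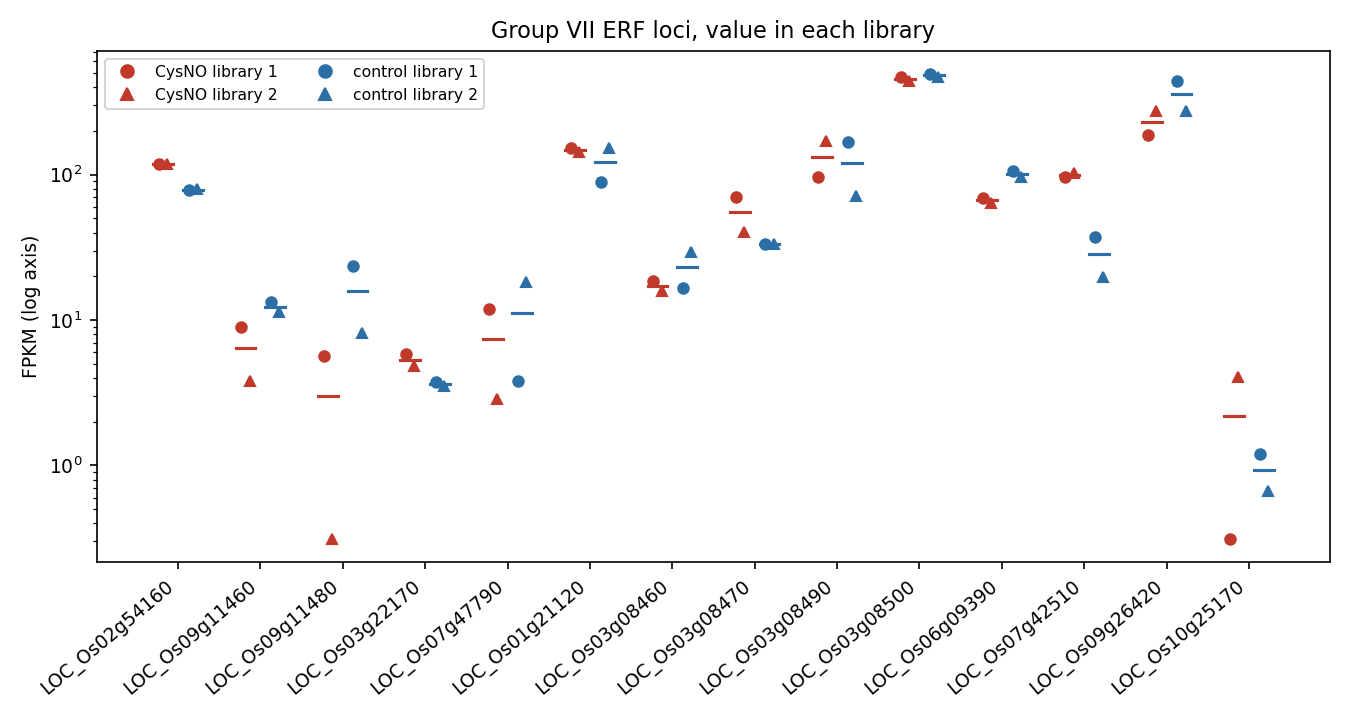
FPKM (log axis) of the 14 group VII ERF loci, first the 3 of the gene set and then the 11 further ones, in CysNO (red, left) and control (blue) libraries with group means as bars. LOC_Os07g42510 is at 96.3 and 103 FPKM in CysNO, against 37.2 and 19.7 FPKM in control, and LOC_Os09g11480 has its lowest value, 0.311 FPKM, in CysNO 2.

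Among 6 loci of sugar starvation and submergence signalling, 1 fell and 0 rose, against 0.956% called lower and 3.27% called higher among all tested loci. So small a count is not read as a result about the list. TPP7 (LOC_Os09g20390), which encodes a trehalose-6-phosphate phosphatase known in rice for germination under low oxygen, had 61.7 and 53.9 FPKM in CysNO, against 307 and 341 FPKM in control. All treated values lay far below all control values, with a log2 fold change of -2.47 (SE 0.27, adjusted p from limma = 0.00618). Like PDC1, TPP7 was not called without CysNO 1 (log2 fold change -2.56) or without CysNO 2 (-2.37). With no filter it was not called either (limma, adjusted p = 0.0896). SLR1, for the DELLA repressor of gibberellin response, had 88.9 and 95.2 FPKM in CysNO, against 160.4 and 180.0 FPKM in control, and did not pass, its log2 fold change being -0.88 (adjusted p from limma = 0.133). The protein kinase genes CIPK15 and SnRK1A and the α-amylase regulator gene MYBS1, which in rice link low oxygen or sugar starvation to Amy3D, overlapped between the groups, with log2 fold changes of 0.21, 0.15 and -0.16. SLRL1, a relative of SLR1, had 24.1 and 18.8 FPKM in CysNO, against 14.5 and 16.8 FPKM in control (limma, adjusted p = 0.495).

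Hexose phosphorylation and glycolysis, which supply pyruvate, were listed as 13 loci. Among them is LOC_Os05g33570, for pyruvate phosphate dikinase, which is not itself a glycolytic enzyme. Limma called 0 of the 13, where 4.23% of all tested loci were called. At an unadjusted p under 0.05 the count was also 0, where 9.66% of all tested loci were higher and 8.39% lower. Nothing is read about glycolysis from these counts. Log2 fold changes ran from -0.54 to 0.65 with a median of 0.16, and 9 of the 13 were positive, against 48.9% of all tested loci. The most abundant, LOC_Os04g40950, a locus listed for cytosolic glyceraldehyde-3-phosphate dehydrogenase, had 666 and 356 FPKM in CysNO, against 418 and 470.2 FPKM in control. As with SUS1 and LDH, both controls lay between the CysNO libraries. CysNO 1 was above CysNO 2 at 10 of these 13 loci and at 8 of the 10 fermentation and low-oxygen genes, and at 60.6% of all tested loci.

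**Figure D5:**
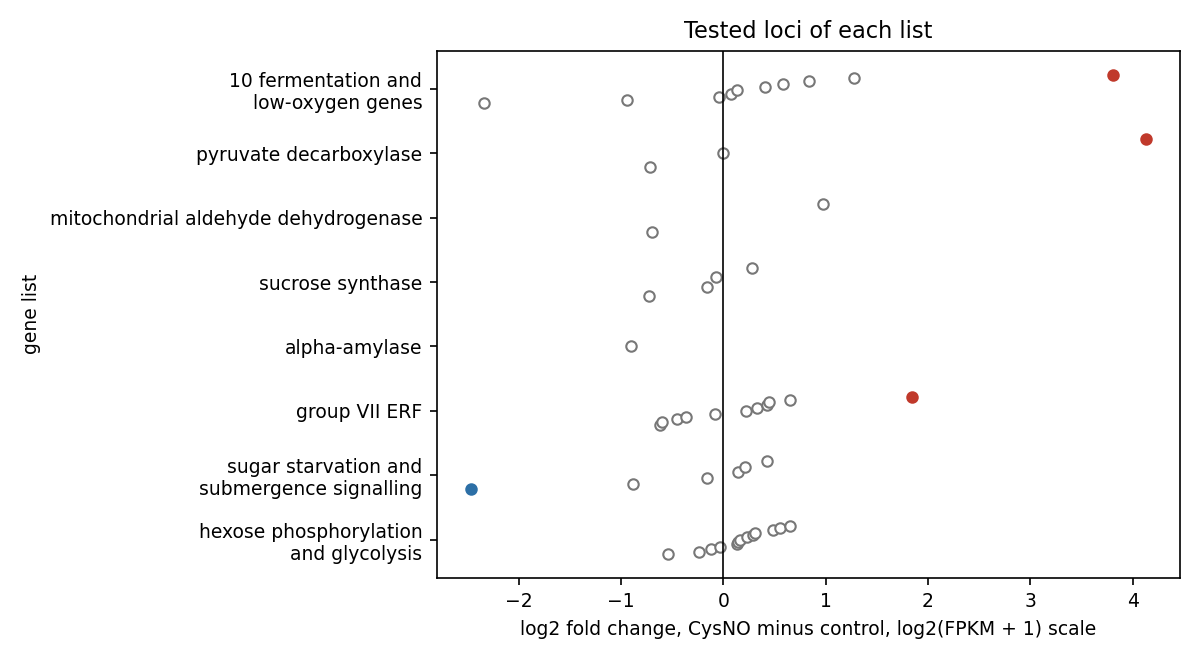
Log2 fold change (CysNO minus control, log2(FPKM + 1) scale) of every tested locus of the 10 genes and of each list, with 1 point per locus; filled red points were called higher, filled blue lower and open points were not called. The called points are PDC1 (3.81), LOC_Os05g39320 (4.13), LOC_Os07g42510 (1.84) and TPP7 (-2.47).

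Over all 48 further loci 40 were tested, of which 2 rose and 1 fell, against 3.27% called higher and 0.956% called lower among all tested loci. LOC_Os05g39320, 1 of the 2 that rose, passed the filter through its CysNO libraries alone. The median log2 fold change was 0.14 over the tested loci of the lists and -0.01 over all tested loci. Among 397 tested loci to which the files give a symbol, the nearest to PDC1 across the 4 libraries were rps16, a chloroplast ribosomal protein locus, and bhlh36. Likeness was the Euclidean distance between log2(FPKM + 1) values after each locus's own mean was subtracted, and came to 0.398 for rps16 and 0.677 for bhlh36. rps16 had 20.3 and 8.50 FPKM in CysNO and was listed at 0 in both controls. bhlh36 had 12.5 and 6.14 FPKM in CysNO, against 0.185 FPKM in control 2, and was listed at 0 in control 1. With 4 libraries in 2 groups, such a distance mostly reflects the size of the group difference.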

How the data were processed

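Leaf poly(A) RNA from 2 CysNO and 2 control libraries was read as 100 bp pairs, per the labels' protocols. Each file deposited by the authors holds FPKM, per the file headers. Bowtie 0.12.2 stands in the submitters' processing notes beside mm8, a mouse build that cannot belong to rice loci. No source used here names the counting program, annotation release, rice build or use of strand.

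Loci that reached 1 FPKM in 2 or more libraries were tested with limma 3.58.1 in R 4.3.3 on log2(FPKM + 1), with a mean-variance trend, two-sided, and Benjamini-Hochberg adjustment over all tested loci (2 residual and 5.36 prior degrees of freedom). The script was tested on simulated data. A permutation test of 2 against 2 libraries cannot reach 0.05 and was not used. FPKM values allow no count test, and no counting interval is given. A listed 0 can be a failed estimate.

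The 10 genes, the 48 further loci and the tissue markers were chosen with earlier results of these data known. Named were all 10 genes and, from each list, the called loci and the most abundant locus, with neighbouring loci. Loci beyond this rule were named after their values were seen. Of the 10 gene names, 7 stand on the same chromosome in a RefSeq gene table (assembly ASM3414082v1), 5 of them with a span within 10% (PDC1 and Amy3D were not). LDH was not found there under that name. The chromosome 9 ERF loci were searched by locus name only, which that gene table does not hold, so their lookup could not succeed. List membership rests on general knowledge of rice locus names.

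Alternatives were a pseudocount of 0.1, no filter, a filter of 5 FPKM, median centring, quantile normalization, the replicate number as a block, no mean-variance trend, and each library left out. Promoter motifs could not be searched, since no sequence was used here.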

Additional observations from a re-analysis of the deposited data

How the results depend on the processing

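The count of called loci depended strongly on the settings. As reported, 691 loci were higher and 202 lower; with no filter on low values 2 and 0 were called, with median centring 381 and 68, with quantile normalization 393 and 87. Leaving out 1 library gave 0 to 816 higher and 0 to 484 lower calls. The low ends came with a lone CysNO library, where the spread is taken from the controls alone. The cause of the low ends was not tested.

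Of the 10 genes, 1 was called higher as reported (PDC1), 0 with no filter, 2 without the mean-variance trend (Amy3D added, log2 fold change 1.28), and 0 to 1 with a library left out. In the lower direction 0 to 1 were called with a library left out (LOC_Os09g11480, -3.52 to -1.17). PDC1 kept its direction throughout, at 3.81 with no filter and 3.50 to 4.12 with a library left out. Leaving out a library turned the sign of PDC2 (-0.18 to 0.088), ADH2 (-0.13 to 1.81), LDH (-0.212 to 0.365) and SUS1 (-0.30 to 0.57), none of them called, and quantile normalization turned LDH (-0.084) and SUS1 (-0.04). Of the 48 further loci, 2 were higher and 1 lower as reported. With no filter 0 and 0 were called, and with a library left out 0 to 2 and 0 to 1. Median centring and quantile normalization each gave 1 higher call. The cause of these shifts was not tested.

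Same-numbered libraries share only a number in the labels. With the replicate block 53 loci were higher and 2 lower; of the 10 genes 1 was higher (PDC1, adjusted p = 0.044), and of the further loci 1 was higher (LOC_Os05g39320, adjusted p = 0.0404) and 0 lower, with LOC_Os07g42510 (0.121) and TPP7 (0.0708) no longer called. Deviations of same-numbered libraries from their group means correlated at -0.186 across loci. Depth is unknown, so how few reads lie behind values under 1 FPKM cannot be stated.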
